A study of Mus musculus with 6 samples.

Results

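The expression of 38 genes of mitosis and the mitotic spindle was compared between ruxolitinib-treated and untreated mice with immune bone marrow failure. The genes were taken from a list of cyclins, mitotic kinases, kinetochore, checkpoint, spindle and cytokinesis genes, by symbol alone, and all 38 were found among the 54532 genes of the count table. RNA was sequenced from bone marrow cells bound by CD8 microbeads, taken from female CByB6F1 mice (a hybrid of the BALB/c and C57BL/6 strains) aged 2 to 5 months with bone marrow failure (BMF), in which T cells destroy the blood-forming marrow. Ruxolitinib blocks the kinases JAK1 and JAK2, through which interferons and many other cytokines signal. Mice that had received it gave 3 libraries (pools 1 to 3). Untreated mice with the same disease gave the other 3 (control pools 4 to 6). Each library held the cells of 2 to 3 mice of 1 group, mixed before RNA extraction. The 6 libraries are thus separate sets of animals, and the spread within a group is one between pools, not between single mice. How the failure was set off, the dose and length of treatment, the day of sampling and any vehicle used in controls were not given in the sources used here. Healthy mice were not analysed here.

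In mitosis, CDK1 bound to its cyclins drives chromosome condensation and spindle assembly, the kinetochores of each chromosome attach to spindle microtubules, and the spindle checkpoint holds the anaphase-promoting ubiquitin ligase inactive until all are attached. The ligase then marks cyclin B and securin for destruction, the sister chromatids part, and the central spindle and a contractile ring divide the cell. The RNAs of most of these proteins are known to rise together in late S, G2 and M phase through the MuvB complex with B-Myb and FoxM1, which acts on a promoter element named the cell cycle homology region (CHR), often with CCAAT boxes bound by NF-Y. Activated T cells and marrow precursors both express these genes while they divide.

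Promoter sequence was not used to choose the genes, and these elements stood in many but not all of their promoters. The sites of genes whose RNA differed between the groups show what the elements look like. A window of 300 bases (250 before to 50 after the annotated start, RefSeq on GRCm38.p6, the assembly of mm10) was matched for 30 of the 38 genes, at the first start listed; Aurkb, Ccna2, Incenp, Stmn1, Esco2, Kif20a, Tpx2 and Cdc25c were not in the promoter table. The CHR letters TTTGAA stood on either strand in 23 of the 30 windows (76.7%), against 17.9% of all 32851 promoter windows in the table. In each 30-base stretch that follows, from 8 genes that passed the test in either direction, the capitals mark the TTTGAA the stretch is centred on, and each is written 5′ to 3′ on the strand that reads TTTGAA. Any other element in a stretch is left in lower case. The first 5 genes had more RNA with ruxolitinib and the last 3 had less.
Anln, chr9:22389168-22389197, + strand: ggccgttcaaaaTTTGAAtttcagcgcccc
Cenpf, chr1:189688067-189688096, - strand: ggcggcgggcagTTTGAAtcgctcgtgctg
Kif4, chrX:100626072-100626101, + strand: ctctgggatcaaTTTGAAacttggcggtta
Mki67, chr7:135716460-135716489, - strand: ccgccgttttggTTTGAAtcgggcgggctg
Prc1, chr7:80294434-80294463, + strand: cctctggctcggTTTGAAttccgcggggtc
Cenpa, chr5:30666890-30666919, + strand: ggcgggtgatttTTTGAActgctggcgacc
Hmgb2, chr8:57511801-57511830, + strand: ggactctccgggTTTGAAtaatcctccaca
Kif2c, chr4:117178858-117178887, + strand: gcattactcaggTTTGAAagagcagcctgg
The element was in 5 of 5 matched genes that were higher with ruxolitinib, in 4 of 6 that were lower and in 14 of 19 that did not pass the test, so genes of all 3 kinds carried it. The windows of Kif2c, Cdca8 and Kif4 lay wholly inside these genes as annotated in the count table, so the start used was not the outermost one. For Kif2c, on the - strand, the window was chr4:117178723-117179022 in a gene that spans 117159639-117182639. The related CHR form TTTAAA was in 9 of 30 windows (30.0% against 13.2% of all), and the CCAAT box in 23 of 30 (76.7% against 37.4%), with at least 2 CCAAT boxes in 17 of 30 (56.7% against 11.7%). TTTGAA and CCAAT stood together in 20 of 30 windows (66.7%) and in 6.95% of all promoter windows. The windows of Mad2l1, Nuf2 and Nusap1 held none of the 3 letter strings. For Mad2l1 the window ended at chr6:66535270, before the gene starts in the count table (66535390). The Hmgb2 window likewise ended at chr8:57511892, before the start of that gene (57511907). A match of letters is a description of the sequence and does not show that a factor binds there.

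The stretches before the starts of Mki67 and Top2a are shown because these 2 genes carry the same elements while the ratio of their RNAs did not overlap between the groups, as described further on. Capitals mark CCAAT or its reverse ATTGG, and TTTGAA or its reverse TTCAAA, each printed on the strand of the gene.
Mki67, chr7:135716380-135716629, - strand: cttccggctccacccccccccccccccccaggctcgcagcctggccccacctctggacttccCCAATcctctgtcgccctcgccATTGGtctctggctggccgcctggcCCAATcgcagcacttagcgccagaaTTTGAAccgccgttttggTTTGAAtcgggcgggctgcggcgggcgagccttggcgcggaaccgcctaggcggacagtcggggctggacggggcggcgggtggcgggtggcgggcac
Top2a, chr11:99024190-99024439, - strand: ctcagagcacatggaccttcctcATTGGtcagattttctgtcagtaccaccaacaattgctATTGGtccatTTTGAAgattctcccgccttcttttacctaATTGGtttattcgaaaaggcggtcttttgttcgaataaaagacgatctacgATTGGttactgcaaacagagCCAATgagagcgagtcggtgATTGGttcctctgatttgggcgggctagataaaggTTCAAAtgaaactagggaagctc
The Mki67 stretch of 250 bases held 2 TTTGAA and 3 CCAAT elements, counted on both strands, and the Top2a stretch held 2 and 6.

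Of the 38 mitosis genes, 7 were lower and 7 were higher with ruxolitinib and 24 did not pass the test (edgeR's quasi-likelihood test, Benjamini-Hochberg adjusted over all 13480 genes tested, threshold 0.05). The share was 18.4% in each direction, against 25.3% of all genes tested that were lower and 29.9% that were higher. All 38 genes passed the filter on low counts. The median log2 fold change (ruxolitinib over control) of the 38 was 0.01 and that of all genes tested was 0.03. The genes that were lower were Stmn1, Cenpa, Mad2l1, Birc5, Kif2c, Hmgb2 and Cdca8, and those that were higher were Kif20a, Anln, Prc1, Mki67, Cenpf, Esco2 and Kif4. In 7 genes all 3 ruxolitinib pools lay below all 3 control pools (30.3% of all genes tested did so) and in 8 they lay above (35.7% of all), and in the other 23 the groups overlapped. These directions hold for TMM scaling; relative to the CD8 T cell identity genes, 0 of the 38 were lower and 32 were higher, as described further on. The fold changes of the 38 ran from -2.14 to 2.75 on the log2 scale.

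Expression is in CPM, counts per 1000000 counts of a library after edgeR's TMM scaling. Where 3 values of a group are given, they stand in the order of the pools, 1 to 3 for ruxolitinib and 4 to 6 for controls. Means carry the SD (n = 3 pools in each group), and log2 fold changes their SE. The libraries held 13829808 to 17708196 counts. The counts of the mitosis genes ran from 17 (Kif20a in control pool 6) to 16117 (Ube2c in control pool 6), with a median of 1047, so that counting error is small for all of them but Kif20a. CPM is not corrected for the length of a gene, and levels are compared here between pools, not between genes.

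**Figure D1:**
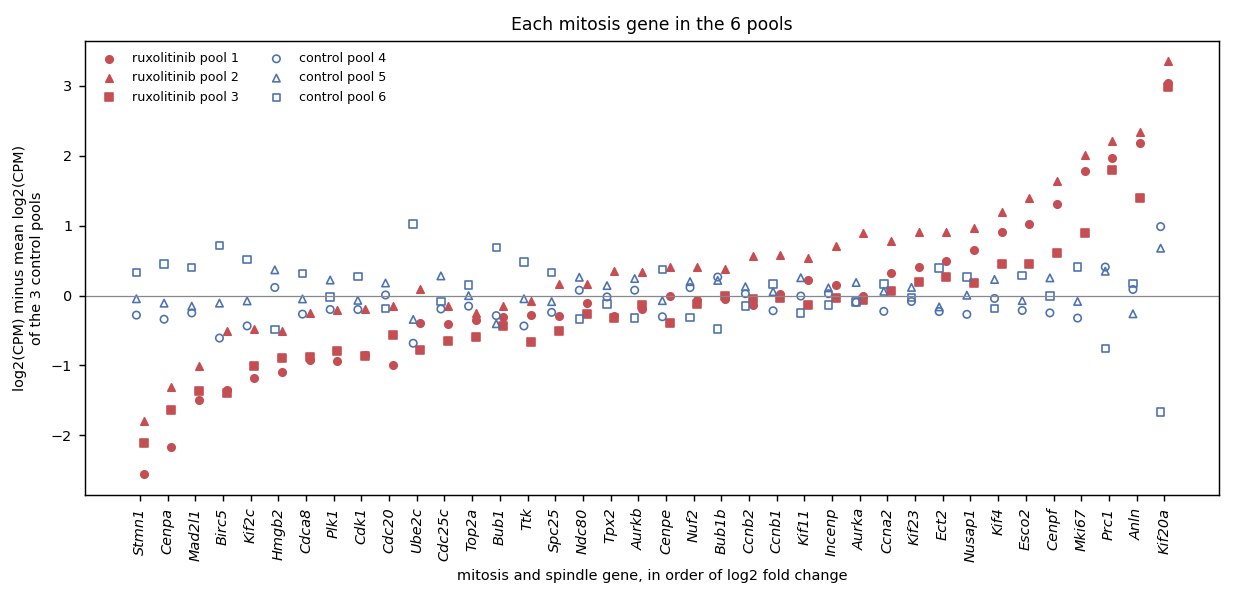
Level of each of the 38 mitosis and spindle genes in the 6 pools, as log2 CPM minus the mean log2 CPM of the 3 control pools (vertical axis), in order of log2 fold change. Filled red symbols are ruxolitinib pools and open blue symbols control pools; pool 2 is the highest ruxolitinib pool for all 38 genes, and control pool 6 stands apart for Kif20a, Prc1, Ube2c, Birc5 and Bub1.

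Markers of CD8 T cells and of other marrow cells differed between the groups and are given before the single genes. The geometric mean (of CPM + 0.5) of 17 CD8 T cell identity genes was 96.4, 114 and 262 with ruxolitinib against 548, 529 and 415 in controls, and 15 of the 17 were lower (median log2 fold change -1.67). The 2 genes of the CD8 molecule were present in every pool. Cd8a was at 179, 193 and 486 CPM with ruxolitinib and 1061, 943 and 825 CPM in controls. Cd8b1 was at 164, 207 and 482 CPM with ruxolitinib and 996, 1007 and 832 CPM in controls. The most abundant identity genes were Trbc2 (log2 fold change -2.55 ± 0.40), a T cell receptor constant gene, and Thy1 (-1.96 ± 0.39). The geometric mean of 15 erythroid genes was 1313, 1439 and 750.5 with ruxolitinib against 12.7, 9.25 and 7.23 in controls, and 15 of 15 were higher (median 7.12). Their summed level was 125275 to 245504 CPM with ruxolitinib and 1869 to 2693 CPM in controls, led by the haemoglobin genes Hba-a1 (6.48 ± 0.50) and Hbb-bs (6.03 ± 0.51). Monocyte and macrophage genes were higher in 10 of 10 (summed level 8435 to 13976 CPM with ruxolitinib and 1121 to 1516 CPM in controls), B cell precursor genes in 8 of 9 tested (684 to 952 CPM with ruxolitinib and 136 to 170.4 CPM in controls), granulocyte genes in 7 of 12 with 1 lower (8438 to 19429 CPM with ruxolitinib and 1557 to 6018 CPM in controls) and stem and progenitor genes in 6 of 8 (162 to 332 CPM with ruxolitinib and 29.5 to 41.6 CPM in controls). Of 6 plasmacytoid dendritic genes 5 were higher and Bst2 was lower, and their summed level was lower with ruxolitinib (101 to 120.2 CPM) than in controls (209 to 228 CPM). Of the smaller lists, 4 of 6 platelet, 6 of 7 stromal and endothelial and 6 of 6 eosinophil and basophil genes were higher, and of 4 natural killer genes tested 2 were lower and 2 higher. Erythroid, B cell and granulocyte precursors are known to divide in the marrow and to express mitosis genes. The part of these cells in the levels of the mitosis genes was not tested, and in bulk RNA fewer cells of a type and less RNA per cell cannot be told apart.

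The geometric mean of the 38 mitosis genes was 66.9, 93.1 and 60.7 with ruxolitinib against 63.9, 72.7 and 73.1 in controls, so that the groups overlapped, and their share of all counts was 0.410% ± 0.0751 with ruxolitinib and 0.529% ± 0.0717 in controls (SD, n = 3 pools each). By pool the share was 0.359%, 0.497% and 0.375% with ruxolitinib and 0.463%, 0.519% and 0.605% in controls, and the groups overlapped. All counts include those of the haemoglobin genes, at 118515 to 233669 CPM with ruxolitinib and 1836 to 2676 CPM in controls. Divided by the geometric mean of the CD8 identity genes, that of the mitosis genes was 0.695, 0.817 and 0.232 in ruxolitinib pools 1 to 3 and 0.117, 0.137 and 0.176 in control pools 4 to 6. The ratio was highest in ruxolitinib pools 1 and 2, where the identity genes were lowest, and the groups did not overlap. The identity genes alone did not overlap either (96.4 to 262 with ruxolitinib against 415 to 548 in controls), whereas the mitosis genes did. With libraries scaled to the identity genes, 69.1% of all genes tested were higher with ruxolitinib.

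**Figure D2:**
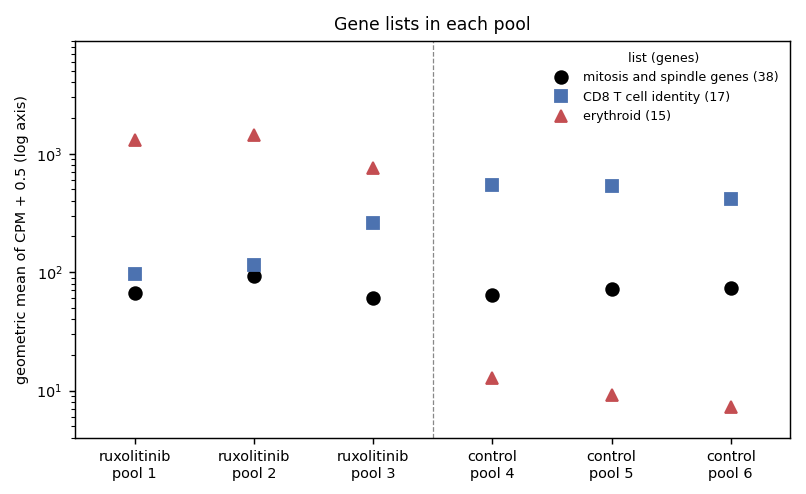
Geometric mean level (CPM + 0.5, log axis) of the 38 mitosis genes (black circles), 17 CD8 T cell identity genes (blue squares) and 15 erythroid genes (red triangles) in each pool. The mitosis genes lie between 60.7 and 93.1 in all 6 pools, while the identity genes are lower and the erythroid genes higher in every ruxolitinib pool.

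None of the 5 genes of the cyclin and CDK1 group passed the test. Cdk1, for the kinase that drives entry into mitosis, was at 95.0, 149.6 and 94.4 CPM with ruxolitinib and 149.6, 164 and 207 CPM in controls. The ruxolitinib pools were low except pool 2, which matched control pool 4, and the difference missed the threshold (log2 fold change -0.62 ± 0.25, adjusted p = 0.0569). Cdk1 passed as lower once ruxolitinib pool 2 was left out (-0.87, adjusted p = 0.0195), a fit in which 19.7% of all genes tested were lower. Pool 2 was the highest ruxolitinib pool for all 38 genes. Scaled to the CD8 identity genes, Cdk1 was past the threshold as higher (1.30, adjusted p = 0.033, edgeR), as were 69.1% of all genes tested. Ccnb1, which encodes cyclin B1, the main partner of CDK1, was at 76.4, 112 and 73.4 CPM with ruxolitinib and 64.6, 78.1 and 84.0 CPM in controls. The groups overlapped (log2 fold change 0.21 ± 0.23, adjusted p = 0.457). Ccnb2, for cyclin B2, had the largest p of the group at 149 ± 42.0 CPM with ruxolitinib and 134 ± 12.9 CPM in controls (log2 fold change 0.16 ± 0.24, adjusted p = 0.593). Ccna2, for cyclin A2, which acts in S phase and early mitosis, was at 205 ± 52.7 CPM with ruxolitinib and 155 ± 21.1 CPM in controls (log2 fold change 0.41 ± 0.24, adjusted p = 0.171). Cdc25c, for a phosphatase that activates CDK1, was at 11.9 ± 2.03 CPM with ruxolitinib and 15.7 ± 2.80 CPM in controls (log2 fold change -0.40 ± 0.25, adjusted p = 0.192). In Ccna2 and the cyclin B genes the highest pool of the 6 was ruxolitinib pool 2.

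The kinase genes Aurka and Plk1 were not past the threshold either. Plk1, for Polo-like kinase 1, which acts in centrosome maturation, spindle assembly and cytokinesis, was at 67.2, 112 and 74.2 CPM with ruxolitinib and 113, 151 and 127 CPM in controls. All ruxolitinib pools lay below the control pools, pool 2 by a small margin, with a log2 fold change of -0.62 ± 0.24 and an adjusted p of 0.0505, close to the threshold. Plk1 was past it as lower in 10 of 18 alternative fits. Scaled to the CD8 identity genes, Plk1 was past it as higher (1.30, adjusted p = 0.0329, edgeR), as were 69.1% of all genes tested. Aurka, for the centrosomal Aurora A kinase, was at 50.5, 94.5 and 48.7 CPM with ruxolitinib and 47.7, 58.0 and 47.9 CPM in controls. Ruxolitinib pool 2 was high and the other 5 pools lay close together (log2 fold change 0.33 ± 0.28, adjusted p = 0.323).

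In the chromosomal passenger complex, which corrects wrong attachments of chromosomes to the spindle and later acts at the central spindle, 2 of 4 genes were lower. Birc5, for the subunit survivin, was at 125, 223 and 120.3 CPM with ruxolitinib and 208, 294 and 521 CPM in controls. Control pool 6 was far above the other pools, and ruxolitinib pool 2 lay above control pool 4, so the groups overlapped although the test was passed (log2 fold change -1.13 ± 0.37, adjusted p = 0.027). Without control pool 6 Birc5 was no longer past the threshold (-0.70, adjusted p = 0.072). The same was true when ruxolitinib pool 1 (-0.99, adjusted p = 0.111) or pool 3 (-0.98, adjusted p = 0.0853) was left out, and with scaling to library totals without haemoglobin genes (-0.82, adjusted p = 0.0678). Of all genes tested, 25.3% were lower with all 6 pools and TMM scaling, and 27.4% without control pool 6. The share was 16.4% without ruxolitinib pool 1, 23.3% without pool 3 and 16.6% with haemoglobin-free totals. Cdca8, for borealin, was at 88.7, 141 and 91.6 CPM with ruxolitinib and 139, 162 and 209 CPM in controls (log2 fold change -0.67 ± 0.25, adjusted p = 0.0472). Its groups touched at ruxolitinib pool 2 and control pool 4. The call was lost on leaving out ruxolitinib pool 1 (-0.54, adjusted p = 0.169) or pool 3 (-0.57, adjusted p = 0.126). Leaving out control pool 5 (-0.71, adjusted p = 0.0781) ended it too, as did leaving out control pool 6 (-0.51, adjusted p = 0.0904). Haemoglobin-free totals (-0.35, adjusted p = 0.218) and RLE factors (-0.66, adjusted p = 0.0533) also ended it. The gene for the kinase of the complex, Aurkb (Aurora B), was at 63.4, 91.5 and 66.2 CPM with ruxolitinib and 76.5, 85.8 and 58.1 CPM in controls. These groups overlapped fully and the fold change was near 0 (log2 fold change 0.00 ± 0.23, adjusted p = 0.988). Incenp, for the scaffold of the complex, was at 113 ± 31.4 CPM with ruxolitinib and 91.5 ± 7.84 CPM in controls (log2 fold change 0.30 ± 0.23, adjusted p = 0.287).

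Of 4 spindle checkpoint genes 1 was lower. Mad2l1, for the protein that inhibits CDC20 at unattached kinetochores, was at 43.7, 61.2 and 47.5 CPM with ruxolitinib and 104, 111 and 163 CPM in controls. All ruxolitinib pools were below all control pools, the highest of which was pool 6, and Mad2l1 was 2.47-fold lower (log2 fold change -1.31 ± 0.24, adjusted p = 0.00152). Bub1b, for the checkpoint protein BubR1, was at 46.3, 62.3 and 47.7 CPM with ruxolitinib and 57.3, 55.5 and 34.2 CPM in controls. Here control pool 6 was the lowest of the 6 and the groups overlapped (log2 fold change 0.09 ± 0.25, adjusted p = 0.776). Bub1, for a kinase of the same checkpoint, had 54.7 CPM in control pool 6 against 25.1 to 30.4 CPM in the other 5 pools (log2 fold change -0.38 ± 0.30, adjusted p = 0.296). Ttk, for the kinase Mps1, was at 13.8 ± 2.73 CPM with ruxolitinib and 17.8 ± 5.73 CPM in controls (log2 fold change -0.37 ± 0.29, adjusted p = 0.298).

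The 6 kinetochore and centromere genes held 1 that was lower and 1 that was higher. Cenpa (ENSMUSG00000029177, chr5:30666777-30674830, + strand), for the histone variant that marks the centromere, was at 92.4, 167 and 133 CPM with ruxolitinib and 327, 384 and 564 CPM in controls. Every ruxolitinib pool was below every control pool, and Cenpa was 3.24-fold lower (log2 fold change -1.70 ± 0.30, adjusted p = 0.00121). Cenpf, for a large coiled-coil protein of the outer kinetochore, was at 52.7, 66.1 and 32.3 CPM with ruxolitinib and 17.9, 25.3 and 21.2 CPM in controls. All ruxolitinib pools were above all control pools, with pool 3 nearest to them (log2 fold change 1.23 ± 0.28, adjusted p = 0.00484). Cenpe, for a kinetochore kinesin that moves chromosomes to the spindle equator, was at 30.8, 41.2 and 23.7 CPM with ruxolitinib and 25.2, 29.5 and 40.3 CPM in controls. The groups overlapped and the fold change was near 0 (log2 fold change 0.01 ± 0.27, adjusted p = 0.978). The other 3 genes are subunits of the NDC80 complex, the main link from kinetochore to microtubule, and did not pass the test. Their log2 fold changes were -0.07 ± 0.23 for Ndc80 (adjusted p = 0.800), 0.08 ± 0.23 for Nuf2 (adjusted p = 0.788) and -0.20 ± 0.24 for Spc25 (adjusted p = 0.506).

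Of 6 spindle motor and microtubule genes 2 were lower and 1 was higher. Stmn1 (ENSMUSG00000028832, chr4:134468320-134473843, + strand), for stathmin, which destabilises microtubules and is switched off by phosphorylation in mitosis, was at 129, 219 and 177 CPM with ruxolitinib and 626, 737 and 954 CPM in controls. The groups were wide apart, and Stmn1 was 4.41-fold lower, the largest fall among the 38 (log2 fold change -2.14 ± 0.28, adjusted p = 0.000273). Kif2c, for a kinesin that shortens microtubules at kinetochores, was at 23.4, 37.8 and 26.2 CPM with ruxolitinib and 39.2, 50.2 and 75.5 CPM in controls. Ruxolitinib pool 2 came close to control pool 4 without reaching it, and control pool 6 was the highest (log2 fold change -0.92 ± 0.29, adjusted p = 0.0223). Its call was lost without ruxolitinib pool 1 (-0.77, adjusted p = 0.101) or pool 3 (-0.85, adjusted p = 0.0668), and with haemoglobin-free totals (-0.60, adjusted p = 0.084).

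Kif4, for a chromosome-bound kinesin that works with PRC1 at the central spindle, was at 48.9, 60.0 and 35.5 CPM with ruxolitinib and 25.3, 30.6 and 22.9 CPM in controls. All ruxolitinib pools were above the control pools, with pool 3 nearest (log2 fold change 0.87 ± 0.24, adjusted p = 0.0124). Its call was lost when ruxolitinib pool 2 was left out (0.68, adjusted p = 0.0592). Tpx2, for the protein that brings Aurora A to the spindle, was at 93.5, 146 and 91.3 CPM with ruxolitinib and 113, 126 and 105 CPM in controls. The groups overlapped (log2 fold change -0.06 ± 0.23, adjusted p = 0.847). Kif11, for the motor that pushes the spindle poles apart, was at 108 ± 24.8 CPM with ruxolitinib and 92.9 ± 16.2 CPM in controls (log2 fold change 0.22 ± 0.23, adjusted p = 0.438). Nusap1, for a protein that stabilises microtubules near chromosomes, was at 152 ± 40.1 CPM with ruxolitinib and 99.0 ± 18.2 CPM in controls, with an adjusted p of 0.058 (log2 fold change 0.62 ± 0.25). Nusap1 was past the threshold as higher in 7 of 18 alternative fits. Among these were CD8 identity scaling and haemoglobin-free totals, in which 69.1% and 37.9% of all genes tested were higher.

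The central spindle and cytokinesis genes were the only one of the 9 role groups with all its members above 0 in fold change. Of the 5 genes, 3 were higher and none was lower, against 29.9% higher and 25.3% lower among all genes tested. The median log2 fold change was 1.91. The coding lengths ran from 1860 bases (Prc1) to 3363 bases (Anln). In the length classes of these genes the median log2 fold change of all coding genes was 0.24 to 0.67, as described further on. As a group 5 genes are few, and this group was not tested against the others. Kif20a (ENSMUSG00000003779, chr18:34624624-34633265, + strand), for the kinesin that carries the chromosomal passenger complex to the central spindle, was at 27.5, 34.2 and 26.4 CPM with ruxolitinib and 6.64, 5.36 and 1.06 CPM in controls. All ruxolitinib pools were above 26 CPM and no control pool reached 7, with control pool 6 the lowest, and Kif20a was 6.72-fold higher (log2 fold change 2.75 ± 0.51, adjusted p = 0.00158). Prc1 (ENSMUSG00000038943, chr7:80294450-80316259, + strand), for the protein that bundles the antiparallel microtubules of the central spindle, was at 53.6, 63.5 and 48.0 CPM with ruxolitinib and 18.2, 17.5 and 8.15 CPM in controls. The groups were far apart, control pool 6 was again the lowest, and Prc1 was 3.76-fold higher (log2 fold change 1.91 ± 0.31, adjusted p = 0.000747).

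Anln (ENSMUSG00000036777, chr9:22332012-22389188, - strand), for anillin, the scaffold of the contractile ring, was at 43.2, 47.8 and 24.9 CPM with ruxolitinib and 10.1, 7.91 and 10.7 CPM in controls. The 3 control pools were close together, ruxolitinib pool 3 was lower than the other ruxolitinib pools, and Anln was 4.04-fold higher (log2 fold change 2.01 ± 0.29, adjusted p = 0.000377). Kif23, for the motor subunit of centralspindlin, was at 44.2, 62.5 and 38.1 CPM with ruxolitinib and 31.3, 36.0 and 32.5 CPM in controls. All ruxolitinib pools were above all control pools, but the test was not passed (log2 fold change 0.54 ± 0.23, adjusted p = 0.0699). Ect2, for the exchange factor that activates RhoA at the cell equator, was at 37.0, 49.4 and 31.6 CPM with ruxolitinib and 22.5, 23.5 and 34.5 CPM in controls. Control pool 6 lay above ruxolitinib pool 3 (log2 fold change 0.55 ± 0.25, adjusted p = 0.0906), and without control pool 6 Ect2 was past the threshold (0.76, adjusted p = 0.0172).

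Kif20a overlaps the neighbouring gene Cdc23, a subunit of the anaphase-promoting complex read from the other strand. Cdc23 was at 21.2, 26.6 and 33.4 CPM with ruxolitinib and 17.4, 13.1 and 4.23 CPM in controls. It too was higher with ruxolitinib and lowest in control pool 6 (log2 fold change 1.22 ± 0.43, adjusted p = 0.0364). The strand setting of the counting was not given in the sources used here, so reads from their shared stretch cannot be told apart. The same holds for Kif4 with Pdzd11, Nusap1 with Oip5, Ccna2 with Exosc9, Cdc20 with Elovl1, Prc1 with Rccd1 and Cdca8 with 9930104L06Rik. Over the 6 libraries Prc1 held 3059 counts against 287 of Rccd1, whereas Kif20a held 1464 against 1752 of Cdc23 and Kif4 held 3315 against 2192 of Pdzd11. Pdzd11 was at 23.8 ± 2.79 CPM with ruxolitinib and 24.0 ± 2.36 CPM in controls (log2 fold change -0.01 ± 0.20, adjusted p = 0.963). Processed pseudogenes of Ccnb1 and Ccnb2 held 67 and 54 counts against 7397 and 12936 of the genes themselves.

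**Figure D3:**
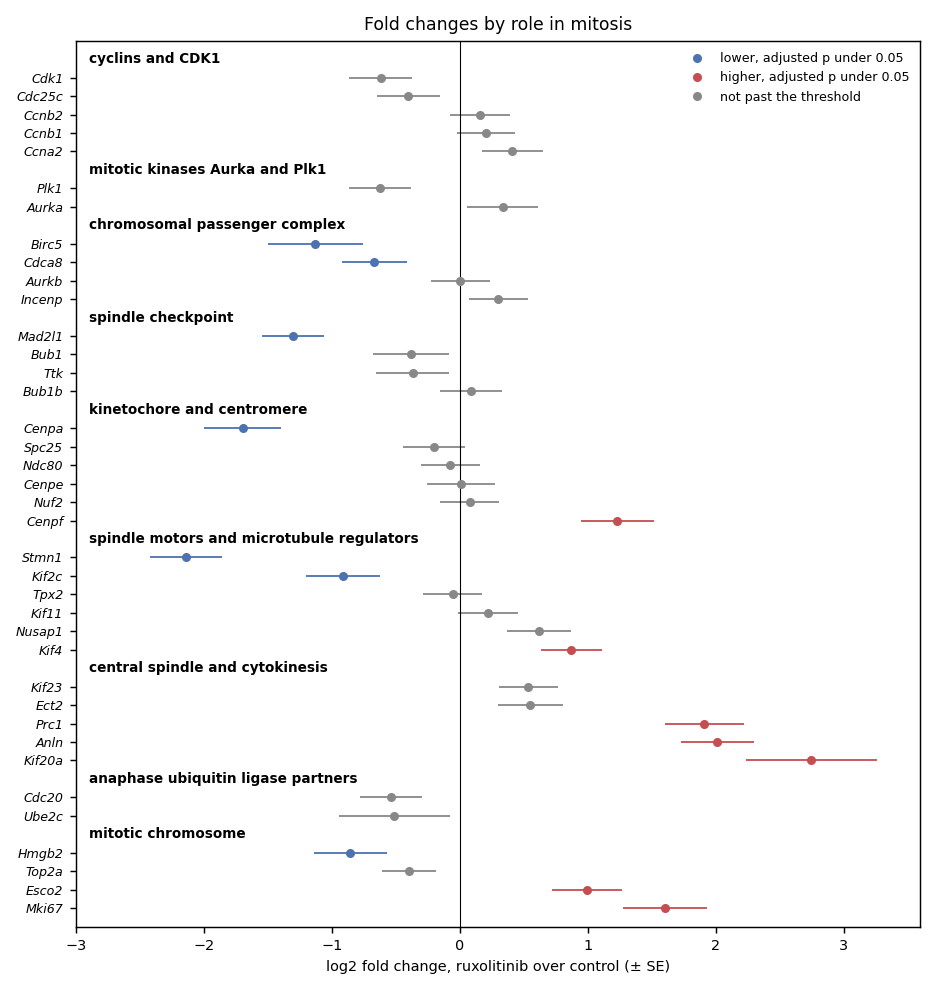
Log2 fold change (ruxolitinib over control, ± SE, horizontal axis) of the 38 genes, grouped by role in mitosis and ordered within each role. Blue points are the 7 genes lower and red points the 7 genes higher at an adjusted p under 0.05 (edgeR), grey points the 24 not past the threshold; the central spindle and cytokinesis genes all lie to the right of 0.

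Neither of the 2 partners of the anaphase ubiquitin ligase passed the test. Cdc20, for its mitotic activator, was at 62.8, 113 and 84.7 CPM with ruxolitinib and 126, 142 and 110.2 CPM in controls. Ruxolitinib pool 2 overlapped the controls (log2 fold change -0.54 ± 0.24, adjusted p = 0.0863). Left without that pool, Cdc20 was past the threshold as lower (-0.77, adjusted p = 0.033), as it was without control pool 6 (-0.64, adjusted p = 0.0484). Of all genes tested, 19.7% and 27.4% were lower in these fits. Scaled to the CD8 identity genes, Cdc20 was past the threshold as higher (1.37, adjusted p = 0.0253, edgeR), as were 69.1% of all genes tested. Ube2c, for the ubiquitin-conjugating enzyme of the ligase, was at 377, 527 and 286 CPM with ruxolitinib and 307, 389 and 1003 CPM in controls. Control pool 6 was far above the other 5 pools, which overlapped (log2 fold change -0.51 ± 0.43, adjusted p = 0.336); leaving out control pool 6 gave a log2 fold change of 0.17, still not past the threshold.

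Of the 4 genes of the mitotic chromosome, 1 was lower and 2 were higher. Mki67 (ENSMUSG00000031004, chr7:135689784-135716361, - strand), for the proliferation marker Ki-67, which coats mitotic chromosomes, was at 511, 600.2 and 278 CPM with ruxolitinib and 119, 141 and 198 CPM in controls. The groups did not overlap, ruxolitinib pool 3 was the nearest to the controls, and Mki67 was 3.04-fold higher (log2 fold change 1.60 ± 0.33, adjusted p = 0.00255). Top2a, for the topoisomerase that untangles sister chromatids, was at 223, 241 and 189 CPM with ruxolitinib and 257, 285 and 317 CPM in controls. Here the ruxolitinib pools were all below the control pools, though the test was not passed (log2 fold change -0.40 ± 0.21, adjusted p = 0.133). Hmgb2, for an abundant DNA-bending chromatin protein, was at 340.2, 514 and 391 CPM with ruxolitinib and 791, 941 and 522 CPM in controls. Ruxolitinib pool 2 and control pool 6 lay next to each other without overlap (log2 fold change -0.86 ± 0.29, adjusted p = 0.0283), and its call was lost in 4 of the 6 fits that each left out 1 pool. Leaving out ruxolitinib pool 1 (-0.71, adjusted p = 0.106) or pool 3 (-0.82, adjusted p = 0.0653) ended it. So did the loss of control pool 4 (-0.81, adjusted p = 0.0635) and that of control pool 5 (-0.66, adjusted p = 0.117). With haemoglobin-free totals Hmgb2 was not past the threshold either (-0.54, adjusted p = 0.124). Esco2, for the acetyltransferase that locks cohesin on sister chromatids, was at 35.7, 46.2 and 23.9 CPM with ruxolitinib and 15.1, 16.7 and 21.3 CPM in controls. The groups were apart, with ruxolitinib pool 3 just above control pool 6 (log2 fold change 0.99 ± 0.28, adjusted p = 0.0125). Leaving out ruxolitinib pool 2 ended the call (0.75, adjusted p = 0.0614).

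A factor that scales a whole library leaves the ratio of 2 genes within it as it was, so 14 pairs of partners were compared as log2 ratios of counts, with pairs chosen after the values of the genes had been seen. Counts follow the length of a gene, so a ratio is compared between pools and its own sign is not read. An exact two-sided permutation test over 3 against 3 pools cannot give a p under 0.1, so no pair could pass a threshold of 0.05 (adjusted over the 14 pairs, the smallest was 0.140). Choosing pairs from seen values makes groups without overlap more likely, so the ratios are a description only. Of single genes tested, 30.3% were lower in every ruxolitinib pool and 35.7% were higher in every one. The share among other gene pairs is not given here. The Top2a to Mki67 log2 ratio was -1.20, -1.32 and -0.56 with ruxolitinib and 1.11, 1.02 and 0.68 in controls. It was lower in every ruxolitinib pool than in any control pool (exact p = 0.1). The Cdk1 to Ccna2 ratio was -1.01, -0.82 and -0.77 with ruxolitinib and 0.19, 0.03 and 0.27 in controls. Again the groups did not overlap, with the ruxolitinib pools lower (exact p = 0.1). The Mad2l1 to Bub1b ratio of the 2 checkpoint genes was -0.08, -0.02 and -0.01 with ruxolitinib and 0.85, 1.00 and 2.25 in controls, lower in every ruxolitinib pool and highest in control pool 6 (exact p = 0.1).

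The other pairs are subunits of 1 complex, proteins that act together, or, for cyclins B2 and B1, alternative partners of CDK1. The Ndc80 to Nuf2 ratio was -0.60, -0.81 and -0.69 with ruxolitinib and -0.60, -0.50 and -0.59 in controls, a difference of -0.14 between the group means, with groups that all but touched (exact p = 0.1). The Cdk1 to Ccnb1 ratio was 0.32, 0.42 and 0.36 with ruxolitinib and 1.21, 1.07 and 1.30 in controls, lower in every ruxolitinib pool (exact p = 0.1). The Ccnb2 to Ccnb1 ratio was 0.67, 0.82 and 0.81 with ruxolitinib and 1.08, 0.90 and 0.52 in controls, with overlapping groups (exact p = 0.8). In the passenger complex the Birc5 to Aurkb ratio was 0.98, 1.28 and 0.86 with ruxolitinib and 1.44, 1.78 and 3.17 in controls (exact p = 0.1), and the Incenp to Aurkb ratio overlapped between the groups (exact p = 0.2). At the central spindle the Kif4 to Prc1 ratio was -0.13, -0.08 and -0.44 with ruxolitinib and 0.47, 0.80 and 1.49 in controls, lower in every ruxolitinib pool (exact p = 0.1). The Kif20a to Prc1 ratio was -0.97, -0.89 and -0.86 with ruxolitinib and -1.46, -1.71 and -2.95 in controls, higher in every ruxolitinib pool (exact p = 0.1). The value in control pool 6 rests on 17 counts of Kif20a, whose reads cannot be told apart from those of Cdc23 in their shared stretch. Of the 4 remaining pairs, the ratios of Cdca8 to Aurkb and Tpx2 to Aurka were lower in every ruxolitinib pool (exact p = 0.1 each). Those of Spc25 to Nuf2 (exact p = 0.8) and Bub1 to Bub1b (exact p = 1) overlapped.

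Ratios of genes of unlike length were not free of the offsets for coding length and GC content that are described further on. Taken as the difference of the 2 fitted log2 fold changes, 7 of the 14 pairs moved by less than 1.5 times, among them Top2a to Mki67 (-1.81 with the offsets), Cdk1 to Ccna2 (-1.03 to -1.14) and Kif4 to Prc1 (-1.04 to -1.43). A further 5 pairs moved by more. Mad2l1 to Bub1b went from -1.39 to -0.37, Birc5 to Aurkb from -1.13 to -0.63 and Bub1 to Bub1b from -0.47 to -0.15. Tpx2 to Aurka went from -0.39 to -0.75 and Ccnb2 to Ccnb1 from -0.05 to -0.28. The difference changed sign for Incenp to Aurkb (0.30 to -0.30) and Spc25 to Nuf2 (-0.28 to 0.06).

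Within each group the genes moved together to different degrees. Of the ruxolitinib pools, pool 2 had the highest level of all 38 genes, while it was the highest of the 3 for 37.8% of all genes tested. Its erythroid geometric mean was the highest too (1439, against 1313 in pool 1). The summed erythroid level was instead highest in pool 1 (245504 CPM, against 198735 CPM in pool 2). A link with erythroid content was not tested. Among the controls, pool 6 was the highest for 20 genes, pool 5 for 15 and pool 4 for 3, and pool 6 was also the lowest for 13. The SD of a gene's log2 CPM had a median of 0.370 among ruxolitinib pools and 0.282 among control pools. After each pool was centred on the mean of the 38 genes, the order was reversed, with a median SD of 0.139 among ruxolitinib pools and 0.251 among control pools. The highest centred values were 1.51 for Kif20a, 0.84 for Ube2c and 0.72 for Prc1, all among the controls. Control pool 6 stood apart in each: it held 1003 CPM of Ube2c and 8.15 CPM of Prc1. Left without that pool, Kif20a, Prc1 and Anln were still past the threshold, with log2 fold changes of 2.27, 1.61 and 2.09 (adjusted p = 0.000152, 0.000294 and 0.000742, edgeR).

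The fold changes followed the coding length of the genes, in this list and in all genes. The longest coding sequence in the annotation (GENCODE M21) had a median of 615 bases (402 to 2163) in the 7 genes that were lower, 1653 bases (537 to 7413) in the 24 not past the threshold and 3363 bases (1776 to 9531) in the 7 that were higher. Among 12024 coding genes tested, cut into 8 classes of length, the median log2 fold change went from -0.75 in the shortest class (up to 573 bases) to 0.67 in the longest (3102 bases and over). As a description across genes, which are not independent and share the same 6 libraries, Spearman's rho of fold change and coding length was 0.60 over the 38 genes and 0.30 over the 12024. Stmn1, Cenpa and Birc5, with 447, 402 and 420 bases, lay below the median of the shortest class, and Mki67, Cenpf and Anln, with 9531, 8991 and 3363 bases, above that of the longest. Kif2c, with 2163 bases, and Top2a, with 4584, lay below the medians of their classes.

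**Figure D4:**
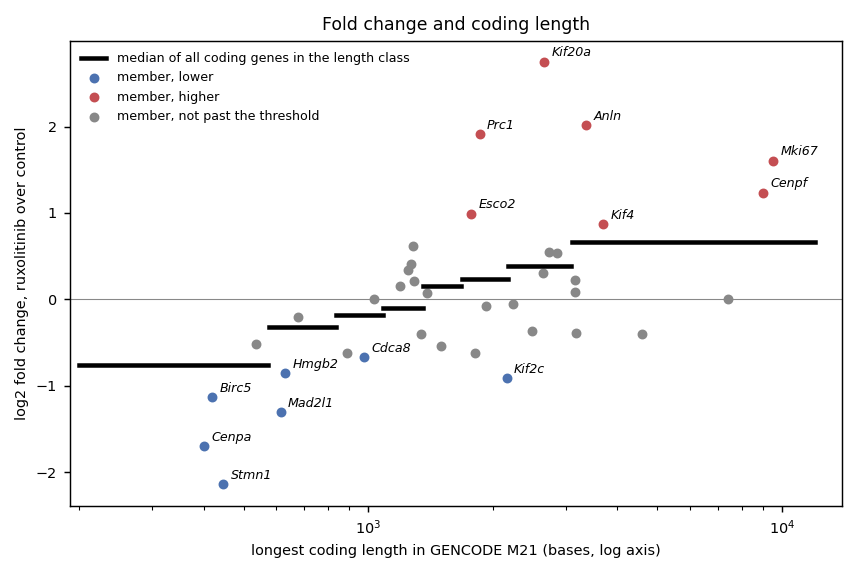
Log2 fold change (ruxolitinib over control, vertical axis) of the 38 genes against their longest coding length in bases (log axis). Bars give the median fold change of all coding genes in each of 8 length classes, from -0.75 in the shortest to 0.67 in the longest; blue points are genes lower, red genes higher and grey genes not past the threshold.

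With an offset per library for coding length and GC content, an alternative added after the data were seen, 11 of the 38 genes were lower and 7 were higher (26.5% and 27.9% of all genes tested). Kif20a (2.23), Prc1 (1.64), Anln (1.53), Esco2 (0.99), Mki67 (0.94) and Cenpf (0.75) stayed past the threshold as higher on the log2 scale, and Nusap1 (0.86) joined them. Kif4 did not (0.21, adjusted p = 0.481). Stmn1 (-1.63), Kif2c (-1.34), Cenpa (-1.11), Mad2l1 (-1.04) and Cdca8 (-0.72) stayed lower, and Birc5 (-0.62) and Hmgb2 (-0.62) did not. Plk1 (-1.05), Top2a (-0.87), Cdc20 (-0.83), Bub1 (-0.81), Cdk1 (-0.67) and Bub1b (-0.67) were past the threshold as lower in that fit.

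The direction of many of the genes depended on how the libraries were scaled. The fold changes of 17 of the 38 went from below to above 0 on scaling to the CD8 identity genes. Scaled to the CD8 identity genes, a scale that takes those 17 genes as the measure of T cells and assumes that ruxolitinib does not alter them, 32 of the 38 mitosis genes were higher and 0 were lower (69.1% and 0.564% of all genes tested), by edgeR. This scaling moved the median of all genes tested from 0.03 to 1.94, and the median of the mitosis genes was 1.96, so that relative to all genes the list again lay near the middle. The 6 genes not higher were Stmn1 (-0.29), Cenpa (0.13), Mad2l1 (0.57), Birc5 (0.76), Kif2c (0.96) and Hmgb2 (1.09), the lowest of the list under TMM scaling too. Kif20a, Anln, Prc1, Mki67 and Cenpf were past the threshold as higher in all 18 alternative fits, and Stmn1, Cenpa and Mad2l1 as lower in 16 of 18, the exceptions being the 2 fits with this scaling.

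**Figure D5:**
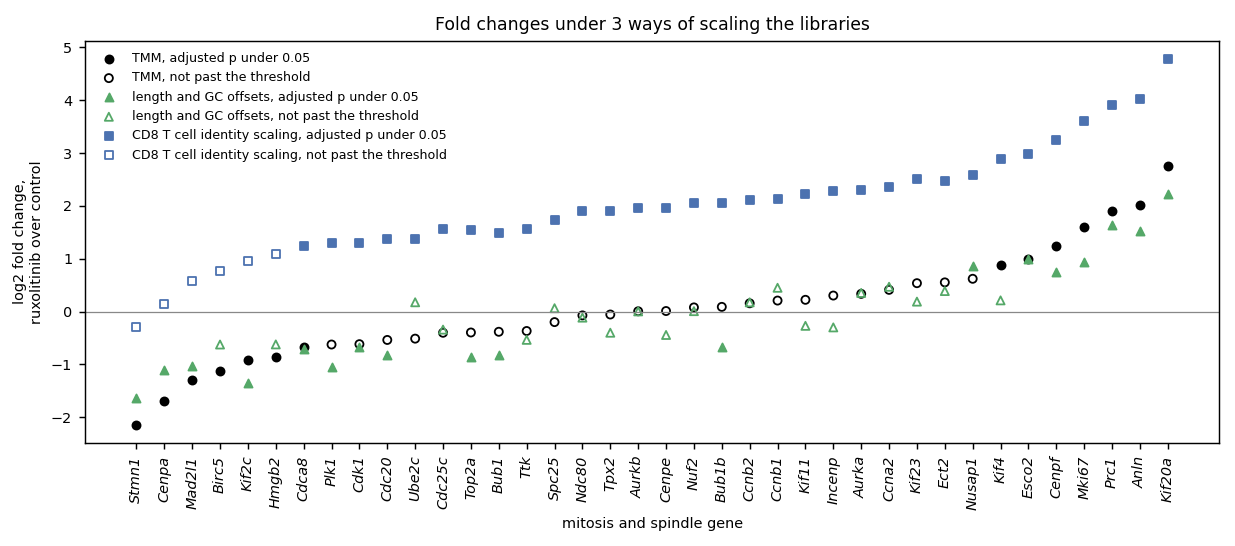
Log2 fold change (ruxolitinib over control, vertical axis) of the 38 genes under TMM scaling (black circles), with offsets for coding length and GC content (green triangles) and scaled to 17 CD8 identity genes (blue squares); filled symbols passed an adjusted p under 0.05. The blue squares lie about as far above the black circles as the median of all genes moved (0.03 to 1.94).

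Other genes of mitosis, in lists of the same roles, were also mixed in direction. Of 31 other kinetochore and centromere genes, 7 were lower and 4 were higher (median log2 fold change 0.03). Pmf1, for a subunit of the MIS12 kinetochore complex, was at 63.0 ± 13.5 CPM with ruxolitinib and 253 ± 57.9 CPM in controls (log2 fold change -2.01 ± 0.26, adjusted p = 0.000231). Mis18a, for a protein that prepares centromeres for new CENP-A, was also lower (log2 fold change -1.63 ± 0.29, adjusted p = 0.00126), as Cenpa itself was. Oip5, for its partner in the same complex, had the largest p of the list (log2 fold change 0.03 ± 0.27, adjusted p = 0.942). Hjurp, for the CENP-A chaperone, chosen here after its value was seen, was higher (log2 fold change 0.55 ± 0.21, adjusted p = 0.0482). Of 28 other mitotic kinesin and spindle genes, 6 were lower and 9 were higher (median 0.17). Cep55, for a protein of the last step of cell separation, was at 8.98 ± 4.10 CPM with ruxolitinib and 39.0 ± 5.11 CPM in controls (log2 fold change -2.11 ± 0.32, adjusted p = 0.000508). Pimreg was lower as well (log2 fold change -2.37 ± 0.38, adjusted p = 0.000691), and Ckap5, for a microtubule polymerase, had the largest p (log2 fold change 0.01 ± 0.22, adjusted p = 0.979). Cep55 and Anln, which both act in cytokinesis, thus went in opposite directions.

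Among 16 other mitotic kinase and cyclin-CDK genes, 3 were lower and 2 were higher (median -0.10). Cks1b, for a small subunit of cyclin-CDK complexes, was lower (log2 fold change -1.72 ± 0.24, adjusted p = 0.000325). Cdc25b, for a phosphatase that activates CDK1, was higher (log2 fold change 1.78 ± 0.30, adjusted p = 0.000935). Wee1, for a kinase that inhibits CDK1, had the largest p (log2 fold change 0.02 ± 0.21, adjusted p = 0.940). Of 10 condensin and separase genes, 1 was lower and 3 were higher (median 0.50). Ncapg2, of condensin II, was at 100.2 ± 22.5 CPM with ruxolitinib and 43.6 ± 11.9 CPM in controls (log2 fold change 1.20 ± 0.26, adjusted p = 0.00368). Ncapg, of condensin I, was higher too (log2 fold change 1.56 ± 0.34, adjusted p = 0.00369), and Espl1, for separase, had the largest p (log2 fold change 0.21 ± 0.30, adjusted p = 0.557). Of 12 cohesin genes, 1 was lower and 3 were higher (median -0.19). Esco1, for another cohesin acetyltransferase, was lower (log2 fold change -0.96 ± 0.22, adjusted p = 0.00428), where Esco2 was higher. Mau2, of the cohesin loader, was higher (log2 fold change 0.87 ± 0.23, adjusted p = 0.00943) but not with length and GC offsets (0.46, adjusted p = 0.0542), and Pds5a had the largest p (log2 fold change -0.09 ± 0.19, adjusted p = 0.698).

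Of 17 subunits and regulators of the anaphase-promoting complex, 4 were lower and 2 were higher (median -0.22). Anapc11, for its catalytic RING subunit, was at 56.3 ± 5.47 CPM with ruxolitinib and 133 ± 16.7 CPM in controls (log2 fold change -1.23 ± 0.19, adjusted p = 0.000637). Anapc13, for another subunit, was lower too (log2 fold change -0.98 ± 0.24, adjusted p = 0.00721) but not with length and GC offsets (-0.35, adjusted p = 0.148), and Anapc4 had the largest p (log2 fold change -0.09 ± 0.36, adjusted p = 0.841). The shares in each of these lists stand against 25.3% lower and 29.9% higher among all genes tested, and no list was tested as a set.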

How the data were processed

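Counts are the deposited raw read counts per gene, which the authors did not normalise, judged by whole numbers and unequal library totals. Per the submitters' processing notes, reads were aligned with HISAT2 2.0.5 to mm10. Libraries were made with NEBNext Ultra II from total RNA, per the labels' protocols. The counter, its use of strand and the gene annotation were not given in the sources used here. Sample labels gave the groups.

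The test was that of edgeR 4.0.16, run in R 4.3.3 (filterByExpr, TMM, robust quasi-likelihood fit, group as the only term) over 13480 genes, with Benjamini-Hochberg adjustment. The SE is the fold change divided by the square root of F. Reads are not independent molecules, so precision rests on the spread between pools. Coding lengths came from GENCODE M21, which matched all 38 genes (54409 of 54532 in the table).

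The members and lists were chosen with earlier results of these data known. Named were, in each role, the genes with the smallest and largest p, plus Mki67, Top2a, Cdk1, Ccnb1 and Aurkb, and in each further mitosis list the 2 called genes with the smallest p and the 1 gene with the largest. All other mitosis genes were added with shorter values. Alternatives were RLE and upper-quartile factors, haemoglobin-free totals, CD8 identity scaling, other filters, DESeq2 1.42.0, limma 3.58.1 (voom, with and without quality weights), protein-coding genes alone and leaving out each pool. Offsets for coding length (8 classes) and GC (5 classes) were added after seeing the data. The fits were tested on simulated counts. The results of some genes and sequences that these rules take are not reported here.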

Additional observations from a re-analysis of the deposited data

How the results depend on the processing

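Counts of 7 genes lower and 7 higher became 6 and 7 with RLE factors, 8 and 7 with upper-quartile factors or DESeq2, 9 and 7 without the filter, with limma-voom or with protein-coding genes alone, 7 and 7 with a minimum of 1 CPM in 3 libraries, 9 and 11 with voom quality weights, and 11 and 7 with length and GC offsets. Scaling to library totals without haemoglobin genes gave 3 and 12 (median log2 fold change 0.32). All genes tested moved with it: 16.6% were lower and 37.9% higher in that fit, with a median of 0.36. CD8 identity scaling gave 0 and 32 (median 1.96), and 0 and 29 with length and GC offsets (median 1.78); the shift of all genes is part of that scaling. Leaving out each pool in turn gave 3 to 10 genes lower (3 without ruxolitinib pool 1 or 3, 10 without pool 2), 5 to 9 higher and medians of -0.19 to 0.11. Of all genes tested, 16.4% (without ruxolitinib pool 1) to 27.4% (without control pool 6) were lower in these fits, and 24.6% to 32.1% were higher. Each of these fits has 1 library fewer, and a lost call alone does not show a changed fold change. No paired analysis was possible because the pools of the 2 groups carry different numbers. Log2 fold changes that took the other sign under CD8 identity scaling were Cdk1 1.30, Cdc25c 1.56, Plk1 1.30, Birc5 0.76, Cdca8 1.24, Bub1 1.49, Ttk 1.56, Mad2l1 0.57, Cenpa 0.13, Spc25 1.73, Ndc80 1.90, Kif2c 0.96, Tpx2 1.90, Cdc20 1.37, Ube2c 1.38, Top2a 1.54, Hmgb2 1.09, Mis18a 0.16, Cks1b 0.15, Esco1 0.90, Pds5a 1.85, Anapc11 0.66, Anapc13 0.94, Anapc4 1.82 and Mcm7 1.89. With length and GC offsets added they were Cdk1 1.25, Cdc25c 1.62, Birc5 1.27, Cdca8 1.18, Ttk 1.39, Mad2l1 0.85, Cenpa 0.73, Spc25 2.01, Ndc80 1.86, Kif2c 0.51, Tpx2 1.54, Stmn1 0.23, Ube2c 2.09, Hmgb2 1.34, Pmf1 0.12, Mis18a 0.54, Cks1b 0.76, Esco1 0.70, Pds5a 1.34, Anapc11 1.28, Anapc13 1.57, Anapc4 1.59, Mcm7 1.47 and Thy1 0.42. With the offsets alone, Bub1b went from 0.09 to -0.67; the cause was not tested. A further 41 values of 17 mitosis genes, of 684, changed sign and stayed outside the threshold. With 3 pools a group the precision is limited, and Kif20a in control pool 6 rests on 17 counts.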

Other observations

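The regulators of mitotic transcription and the genes of DNA replication, which in a dividing cell act before mitosis, were also mixed. Of 11 genes (the MuvB complex, B-Myb, FoxM1, NF-Y and Tfdp1), 4 were lower, Tfdp1 among them, and 3 were higher (median log2 fold change 0.05). Foxm1 was at 51.5 ± 9.90 CPM with ruxolitinib and 25.3 ± 1.58 CPM in controls (SD, n = 3 pools in each group here and after; log2 fold change 1.03 ± 0.21, adjusted p = 0.00262), and with length and GC offsets it was no longer past the threshold (0.41, adjusted p = 0.129). Mybl2, which encodes B-Myb, was at 84.8 ± 25.9 CPM with ruxolitinib and 30.4 ± 15.8 CPM in controls (log2 fold change 1.48 ± 0.41, adjusted p = 0.0129). Without ruxolitinib pool 2 its call was lost (1.20, adjusted p = 0.0589). Lin52, of MuvB, had the largest p (log2 fold change 0.05 ± 0.24, adjusted p = 0.879). Of 22 DNA replication genes, 7 were lower and 3 were higher (median -0.23). Cdc6, which loads the replicative helicase, was at 75.2 ± 26.3 CPM with ruxolitinib and 31.7 ± 5.28 CPM in controls (log2 fold change 1.25 ± 0.27, adjusted p = 0.00358). Mcm7, a subunit of that helicase, had the largest p (log2 fold change -0.07 ± 0.24, adjusted p = 0.813). Among all genes tested 25.3% were lower and 29.9% higher, by edgeR.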
